A study of Homo sapiens with 6 samples.

Results

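The cytosolic ribosomal protein genes were examined in RNA-seq libraries of Hs766T, an established human pancreatic tumour cell line that the sample titles spell HS7666T. Members were the protein-coding rows of the deposited gene table whose symbols follow the RPL or RPS naming pattern, together with RPLP0, RPLP1, RPLP2 and RPSA. The ribosomal S6 kinases and the 2 matching genes on chromosome Y were left out. This gave 85 of 58302 rows, of which 53 belong to the large and 32 to the small subunit. Among them are 8 paralogs whose names end in L or L1: RPL3L, RPL7L1, RPL10L, RPL22L1, RPL26L1, RPL36AL, RPL39L and RPS27L. The members lie on 21 chromosomes, with 12 on chromosome 19 and 9 on chromosome 3.

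The libraries form 2 groups of 3. The DDX18 group carries the genotype label ex-DDX18 and overexpresses DDX18, a nucleolar DEAD-box RNA helicase that takes part in ribosome assembly. The control group is named plvx and has the genotype label WT. Neither the promoter that drives DDX18 nor whether the cells are a clone or a pool is given in the sources used here. Nothing says that the libraries of a group came from separate cultures. A p-value here sets the difference between the groups against the spread among libraries of a group, and that spread may be technical.

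A human cytosolic ribosome is built from ribosomal RNAs and 1 copy of most ribosomal proteins, with the acidic stalk proteins RPLP1 and RPLP2 present in more copies. The genes share an output but not a locus, and many of their mRNAs begin with a 5′ terminal oligopyrimidine (TOP) tract, through which mTOR signalling and the RNA-binding protein LARP1 control translation. Several carry small nucleolar RNAs in their introns. Because their mRNAs are short and abundant, ribosomal protein genes are also the source of a large share of the processed pseudogenes of mammalian genomes, and reads can fit the gene and its copies alike.

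The start bases of the members show the tract that many share. RefSeq transcript starts (GRCh38.p14) were read for the 68 members held in the table used, and a start was counted as TOP-like when its first base was C and at least 4 pyrimidines followed without a break. Such a start was found in 47 of the 68 (69.1%), against 1404 of all 27305 genes in the table (5.14%). A match describes these letters only. The first 20 transcribed bases are printed for 6 members discussed below that hold the tract and for 2 that do not, with the pyrimidine run in capitals.

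RPL11, chr1:23691806-23691825, plus strand: CTCTTCCTgctctccatcat
RPL18, chr19:48619159-48619178, minus strand: CTCTTTCCggacctggccga
RPL37A, chr2:216498844-216498863, plus strand: CTTTCTgggctcggacctag
RPLP1, chr15:69452818-69452837, plus strand: CCCCTTTCCTCagctgccgc
RPS10, chr6:34426050-34426069, minus strand: CCTTTCCagccccggtaccg
RPS23, chr5:82278335-82278354, minus strand: CTCTTTCgctcaggcccgtg
RPL7L1, chr6:42879616-42879635, plus strand: gtagctaggagcggacgcca
RPS27L, chr15:63157458-63157477, minus strand: gcagatcgcttgcagcttgc

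The 2 sequences without the tract are those of paralogs, but core members such as RPL19 and RPS29 had no such start either, and the paralog RPL22L1 had one. RPL7L1 encodes an RPL7-like protein, and RPS27L is a second gene for an S27-type protein. In RPL11 a further annotated start begins with other letters, so the tract depends on the transcript chosen.

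Total counts lay between 15911875 and 16207995 per library. DDX18 was at 187.2, 197.4 and 176.9 CPM (counts per 1000000, after TMM scaling) in the DDX18 libraries, against 89.4, 82.4 and 98.3 CPM in control libraries. This was a 2.08-fold higher level (edgeR quasi-likelihood test, adjusted p = 0.00982), called in all but 3 of 18 alternative settings. The labelled origin was checked against fixed markers. The epithelial keratins KRT8, KRT18 and KRT7 were abundant, while KRT19, the usual ductal keratin, had at most 4 counts in any library. EPCAM lay between 4.44 and 7.73 CPM and CDH1 between 1.70 and 2.50 CPM over the 6 libraries, without TMM scaling. The summed level of the 6 ductal or epithelial markers was 3310 to 3810 CPM in DDX18 libraries and 3575 to 3676 CPM in control libraries. Acinar and endocrine markers were at or near 0, with 4 of 5 and 3 of 4 of them without a count in any library. The 5 immune markers summed to 5.90 to 7.49 CPM in DDX18 libraries and 4.78 to 6.79 CPM in control libraries. The 3 endothelial markers summed to 5.18 to 5.97 CPM in DDX18 libraries and 4.26 to 7.47 CPM in control libraries. The 5 fibroblast markers summed to 168 to 175 CPM in DDX18 libraries and 162 to 171 CPM in control libraries, most of it PDGFRB and COL1A1, while COL1A2 had no count. Their part in the results was not tested.

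The ribosomal protein genes together took 5.78%, 6.21% and 6.07% of all counts in the DDX18 libraries, against 6.19%, 5.93% and 6.04% in control libraries. The groups overlapped, with DDX18 replicate 1 lowest and DDX18 replicate 2 highest. Large-subunit members took 3.64% ± 0.195 in DDX18 cells and 3.58% ± 0.0385 in control cells (SD, n = 3 each). Small-subunit members took 2.38% ± 0.0248 in DDX18 cells and 2.47% ± 0.0988 in control cells (SD, n = 3 each). The small-subunit share ranged from 2.35% to 2.40% in DDX18 libraries and from 2.39% to 2.58% in control libraries, so these groups overlapped as well. In bulk RNA, fewer cells with a transcript and less of it per cell cannot be told apart.

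The ratio of large- to small-subunit counts within a library needs no scaling between libraries. It was 1.46, 1.59 and 1.55 in DDX18 libraries and 1.40, 1.48 and 1.48 in control libraries. DDX18 replicate 1 lay below 2 of the control libraries, so the groups were not separated. On the log2 scale the mean ratio was 0.62 ± 0.06 in DDX18 cells and 0.54 ± 0.05 in control cells (SD, n = 3 each), a difference of 0.08. With 3 libraries against 3, an exact permutation test cannot reach a p below 0.10, and none was run on this score.

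**Figure D1:**
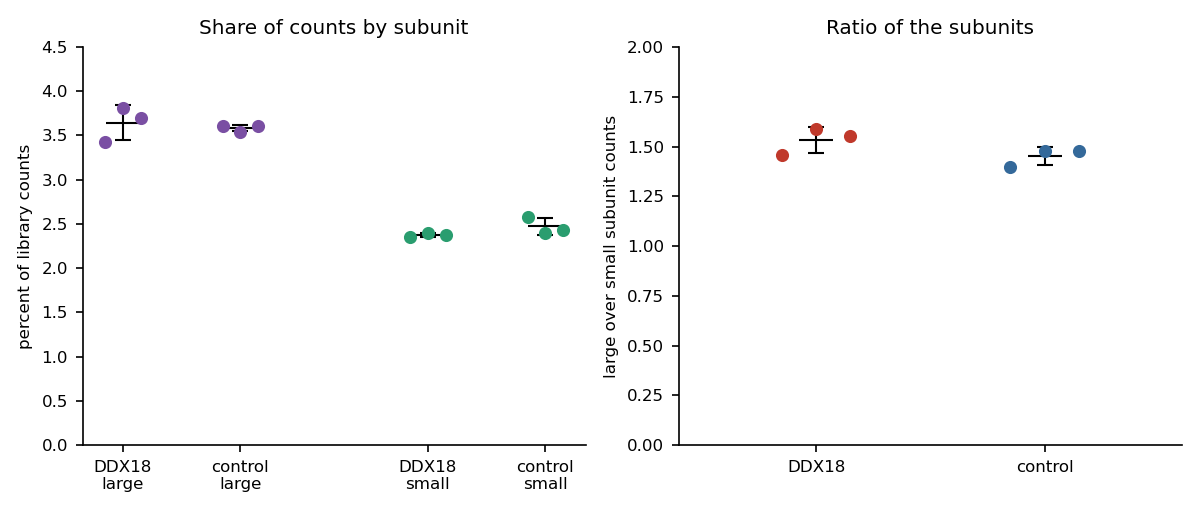
Percent of library counts on large- and small-subunit members (left) and the ratio of large- to small-subunit counts (right), with 1 point per library and the mean ± SD of 3 libraries in black. Both shares and the ratio overlap between DDX18 and control libraries, and the ratio lies between 1.40 and 1.59 in all 6.

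Of the 85 members, 83 passed the filter on low counts. RPL3L, a paralog known from striated muscle, had 6, 2 and 8 counts in DDX18 libraries and 8, 4 and 0 in control libraries. RPL10L, a paralog known from testis, had no count in any library, which allows up to 3 counts in each and covers counting error only.

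No member passed the adjusted threshold of 0.05, where 8 of all 15144 tested genes (0.0528%) did. DESeq2 and limma-voom called none either. The smallest adjusted p among members was 0.813 in edgeR, shared by RPS10 and RPL39. At an unadjusted p under 0.05 there were 5 members (6.02% of 83), against 5.69% of all tested genes, so the share of members lay near the background. The count at this level was 4 members with DESeq2, beside 667 of all 15144 genes, and 7 with limma-voom, beside 876. RPL11 was the 1 on the higher side, where 2.5% of all genes passed, and RPS10, RPL39, RPL7L1 and RPS29 were the 4 on the lower side, where 3.19% did. The log2 fold changes of DDX18 over control were positive for 39 members and negative for 44, with a median of -0.01 and a range from -0.52 to 0.31. The median over all tested genes was -0.00.

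Large-subunit members divided into 26 positive and 25 negative fold changes with a median of 0.00. Small-subunit members divided into 13 positive and 19 negative with a median of -0.02. The 95% confidence interval lay within a 2-fold change either way for 81 of 83 members and within a 1.5-fold change for 70. The exceptions to the wider limit were RPL29 and RPL37A. Of all 15144 tested genes, 12708 lay within the wider and 9287 within the narrower limit. In simulated counts over all 15144 genes the same test recovered 63.4% of 2-fold and 23.1% of 1.5-fold changes. Members had a median SE of 0.108, against 0.145 over all genes. At a mean of at least 100 CPM, members were less precise, with a median SE of 0.099 over 71 members and 0.081 over all 2294 genes. At that level the interval lay within a 1.5-fold change for 61 of the 71 members and 2121 of the 2294 genes. Recovery among members alone was not measured. A modest shift of a single member could still have gone uncalled.

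**Figure D2:**
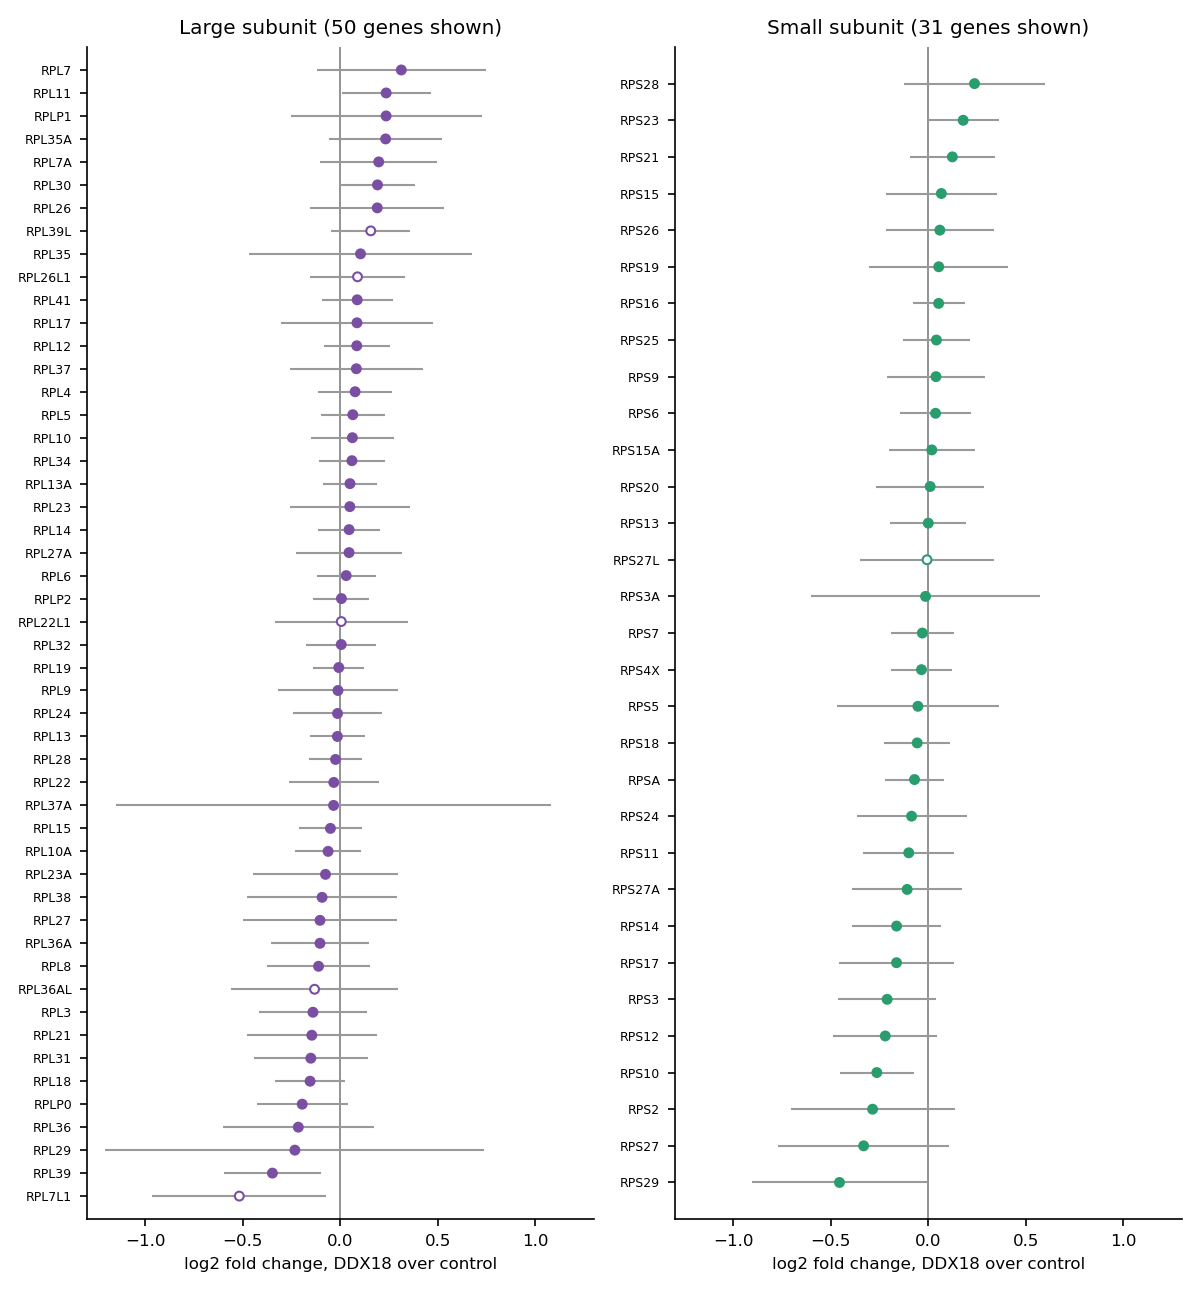
Log2 fold change of DDX18 over control (points) with its 95% confidence interval (lines) for 50 large-subunit and 31 small-subunit genes, ordered by size, with paralogs as open circles. Estimates scatter on both sides of 0, from -0.52 for RPL7L1 to 0.31 for RPL7, and the intervals of RPL37A and RPL29 are the widest.

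In 5 of 83 members (6.02%) the 6 libraries fell into groups that did not overlap, against 11.5% of all tested genes. RPS16 and RPS23 were higher in every DDX18 library, where 5.83% of all genes did not overlap in that direction. RPL18, RPL39 and RPS10 were lower in every DDX18 library, where 5.71% of all genes did so. None of these members was called.

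RPS10, a protein of the small subunit head, had the smallest p of any member. It was at 932, 952 and 895 CPM in DDX18 libraries and at 1146, 1199 and 995 CPM in control libraries. The lowest control library lay above the highest DDX18 library by less than the spread among controls. The log2 fold change was -0.26 (SE 0.08, adjusted p = 0.813 in edgeR). RPS10 shares its locus on chromosome 6 with the read-through gene RPS10-NUDT3, which had 935, 966 and 769 counts in DDX18 libraries and 911, 0 and 611 in control libraries. Added together, the pair was at 999.5, 1012 and 943 CPM in DDX18 libraries and at 1175, 1204 and 1035 CPM in control libraries without TMM scaling, still without overlap.

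RPS29, a small zinc-binding protein of the head as well, was at 283, 213 and 344 CPM in DDX18 libraries. In control libraries it was at 309, 388 and 455 CPM. DDX18 replicate 3 lay above control replicate 1, so the groups overlapped. The log2 fold change of -0.46 (SE 0.19) had an adjusted p of 0.860 in edgeR. RPS3, which lines the mRNA entry channel, was at 976, 1122 and 1192 CPM in DDX18 libraries and at 1440, 1146 and 1226 CPM in control libraries, with the groups overlapping.

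RPS23, a protein of the decoding centre, was at 663, 615 and 594 CPM in DDX18 libraries and at 592, 509 and 554 CPM in control libraries. DDX18 replicate 3 and control replicate 1 were almost level. The log2 fold change of 0.18 (SE 0.08) was not called in edgeR (adjusted p = 0.860). RPS16, whose tail reaches the P site, was at 910, 956 and 898 CPM in DDX18 libraries and at 895, 883 and 888 CPM in control libraries, a log2 fold change of 0.05. RPSA, the laminin receptor homologue that sits at the back of the small subunit, averaged 1317 ± 27.7 CPM in DDX18 cells and 1384 ± 82.0 CPM in control cells (SD, n = 3 each), and its groups overlapped.

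Of the large-subunit proteins, RPL5 and RPL11 form the 5S ribonucleoprotein particle, which joins the assembling subunit and, when free, binds the p53 regulator MDM2. RPL5 was at 946, 1027 and 957 CPM in DDX18 libraries and at 948, 871 and 985 CPM in control libraries, with a log2 fold change of 0.06. RPL11 was at 708, 874 and 883 CPM in DDX18 libraries and at 729.6, 714 and 652 CPM in control libraries. DDX18 replicate 1 of RPL11 fell inside the control range. The log2 fold change of RPL11 was 0.23 (SE 0.10, adjusted p = 0.860 in edgeR).

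The stalk recruits translation factors to the ribosome and is made of RPLP0, RPLP1 and RPLP2. RPLP0 was at 1608, 1639 and 1351 CPM in DDX18 libraries and at 1604, 1735 and 1928 CPM in control libraries, a log2 fold change of -0.20 with overlapping groups. RPLP2 was near level, at 504 ± 14.6 CPM in DDX18 cells and 503 ± 20.2 CPM in control cells (SD, n = 3 each). RPLP1 was at 1547, 1569 and 1532 CPM in DDX18 libraries and at 845, 1522 and 1584 CPM in control libraries. The single low value of RPLP1 was that of control replicate 1, and its log2 fold change of 0.23 became -0.00 without that library.

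RPL18 was at 739, 808 and 792 CPM in DDX18 libraries and at 945, 852 and 809 CPM in control libraries. The highest DDX18 and the lowest control library differed by less than 1 CPM. RPL30 and RPL35A had positive log2 fold changes of 0.19 and 0.23 with overlapping groups, and neither was called. The paralogs that passed the filter were all at low to moderate levels. RPL7L1 was at 187, 116 and 129 CPM in DDX18 libraries and at 231, 168 and 219 CPM in control libraries, with DDX18 replicate 1 above control replicate 2. Its log2 fold change of -0.52 (SE 0.19) was the most negative of all members, with an adjusted p of 0.841 in edgeR. RPL39L averaged 40.1 ± 2.58 CPM in DDX18 cells and 36.0 ± 1.503 CPM in control cells (SD, n = 3 each). The remaining paralogs, RPL22L1, RPL26L1, RPL36AL and RPS27L, had log2 fold changes between -0.13 and 0.09, and none was called.

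Some members differed between libraries in steps that did not follow the groups. RPL37A, a zinc-finger protein of the large subunit, was at 303, 871 and 851 CPM in DDX18 libraries and at 850.4, 311 and 914 CPM in control libraries. DDX18 replicate 1 and control replicate 2 formed a low level, separated from the other 4 libraries by a 2.73-fold step. RPL29, a large-subunit protein also known for binding heparin, was at 576, 1245 and 524 CPM in DDX18 libraries and at 975.4, 1297 and 485 CPM in control libraries. Its low level held DDX18 replicates 1 and 3 and control replicate 3, below a 1.69-fold step. The sets of libraries at the low level thus differed between RPL37A and RPL29, but DDX18 replicate 1 was low in both. Over all tested members, control replicate 2 was the lowest library for 24 and DDX18 replicate 1 for 22. Each of the other 4 libraries was the lowest for 8 to 11. Control replicate 2 was the highest library for 4 members and DDX18 replicate 1 for 13. The cause was not tested.

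RPL35, the highest member per kilobase of annotated transcript, was at 1566, 2006 and 1694 CPM in DDX18 libraries and at 2354, 1401 and 1149 CPM in control libraries. Control replicates 1 and 3 were the highest and the lowest of all. RPS27 was at 153, 243 and 254 CPM in DDX18 libraries and at 303, 281 and 235 CPM in control libraries, with DDX18 replicate 1 apart from the rest by a 1.53-fold step. A gap of at least 1.5-fold between neighbouring libraries occurred in 4 of 71 members with a mean of at least 100 CPM (5.63%) and in 84 of all 2294 genes at that level (3.66%). Across these 71 members the median within-group SD was 0.14 on the log2 scale, against 0.10 over 2223 other genes. With pseudogene counts added, it was 0.12 over the 76 members that then reached 100 CPM. From 500 CPM upwards the medians were 0.14 over 55 members and 0.09 over 243 other genes. These values are a description with no test.

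**Figure D3:**
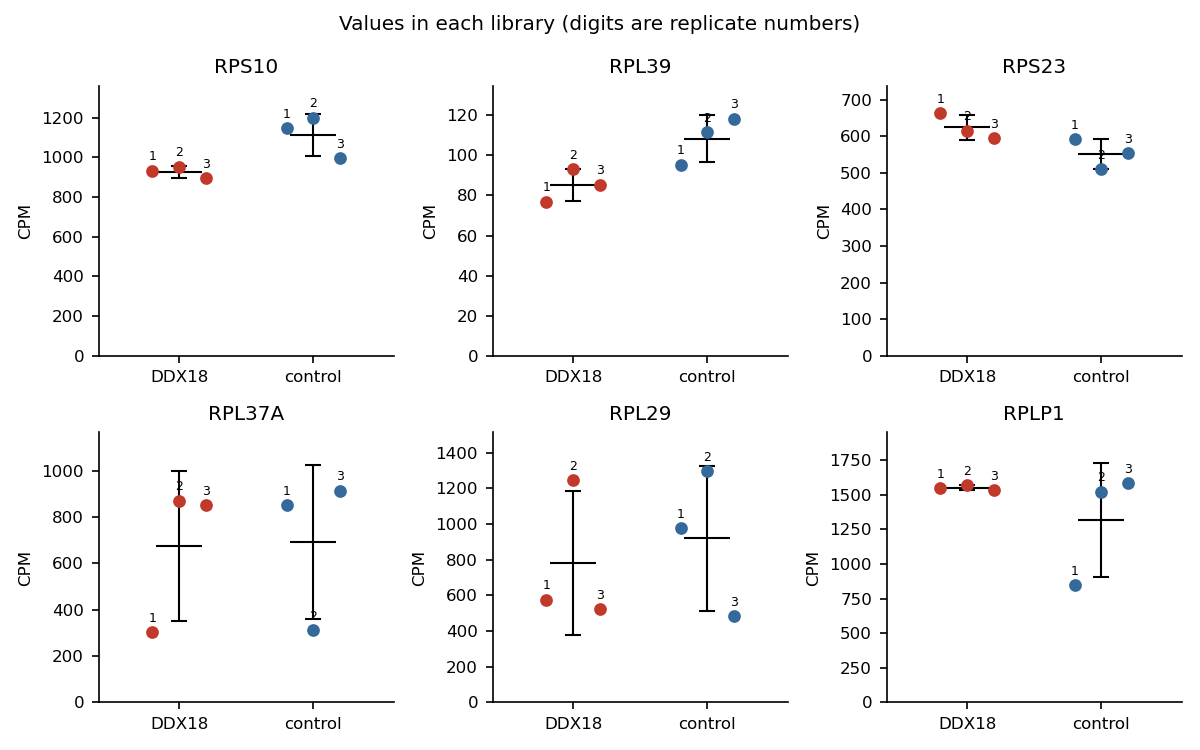
CPM of 6 members in each library, with digits for the replicate and the mean ± SD of 3 libraries in black. RPS10, RPL39 and RPS23 do not overlap between groups, while RPL37A, RPL29 and RPLP1 split into high and low libraries, with RPL37A low in DDX18 replicate 1 and control replicate 2.

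The share of counts that lay on pseudogenes differed widely between members. The table holds 1149 rows for pseudogenes named after a member, 393 of them with at least 1 count. Whether each of them is processed was not checked. They took 2.09% to 2.23% of library counts in DDX18 cells and 2.19% to 2.25% in control cells. Their share of all counts on genes and pseudogenes of the family was 26.6% ± 0.271 in DDX18 cells and 26.9% ± 0.175 in control cells (SD, n = 3 each). These shares overlapped between the groups.

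In 14 members the pseudogenes held more counts than the gene, and in 46 they held under 1% of the pair. The extreme cases were RPL9 and RPS28, with 98.9% of the counts on pseudogenes each, then RPL21 with 97.4% and RPL7 with 92.9%. Others of this kind were RPL10, RPL13A, RPL14, RPL15, RPL23A, RPL39, RPS2, RPS3A and RPSA. By number, RPS2P5 on chromosome 12 was the highest pseudogene, with 34646, 38228 and 39678 counts in DDX18 libraries and 40528, 37804 and 35378 in control libraries, more than RPS2 itself, where pseudogenes held 74.0% of the pair.

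**Figure D4:**
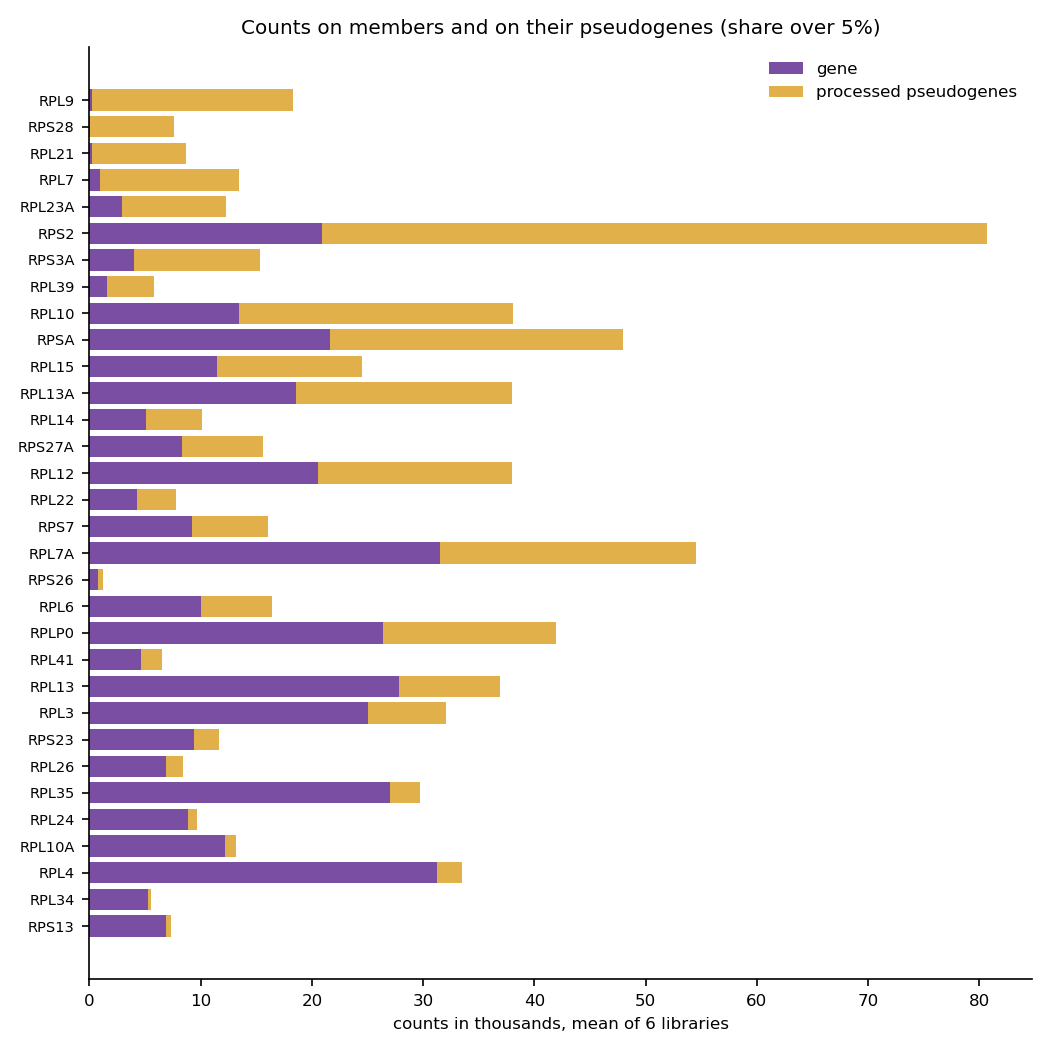
Mean counts over 6 libraries on each of 32 members (purple) and on the pseudogenes named after it (yellow, labelled processed in the key). The members shown have over 5% of the pair on pseudogenes and are ordered by that share. RPL9 and RPS28 at the top have nearly all their counts on pseudogenes, and RPS2 has the most pseudogene counts in absolute number.

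The 40 pseudogenes with a mean of at least 1000 counts were 95.7% to 100% identical to the transcript of their member, with a median of 99.05%, over the stretch that aligned. That stretch can be part of the gene only: RPL9P9 aligned over 415 of its 636 bases, and RPL3P4 over 423 of the 1212 coding bases of RPL3. In 4 of them, RPS28P7, RPL21P16, RPL39P3 and RPL41P1, the whole coding sequence of the member was present without a difference. A read that lies inside such a sequence carries no base that tells the gene from the copy. The coding sequences of 3 of these members, from GENCODE 29 transcripts on GRCh38, are printed because gene and pseudogene share every letter, with the start and stop codons in capitals.

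RPS28, gene at chr19:8321158-8323340, and RPS28P7, chr11:82689559-82689768: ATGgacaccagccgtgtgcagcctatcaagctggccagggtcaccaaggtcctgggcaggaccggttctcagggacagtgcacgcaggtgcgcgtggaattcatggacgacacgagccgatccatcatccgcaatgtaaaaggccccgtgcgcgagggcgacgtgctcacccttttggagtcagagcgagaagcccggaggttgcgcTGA
RPL39, gene at chrX:119786504-119791643, and RPL39P3, chr6:73373108-73373263: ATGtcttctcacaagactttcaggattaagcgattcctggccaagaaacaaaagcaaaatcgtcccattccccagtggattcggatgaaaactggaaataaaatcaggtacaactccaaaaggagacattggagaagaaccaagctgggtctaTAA
RPL41, gene at chr12:56116586-56117943, and RPL41P1, chr20:21755270-21755350: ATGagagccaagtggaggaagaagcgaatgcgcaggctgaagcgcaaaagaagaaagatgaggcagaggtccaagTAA

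Which reads the authors' counting gave to a gene and which to its copies is not given in the sources used here, and its part in these values was not tested.

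Summing each member with its pseudogenes changed single estimates and brought no call. In that fit 8 of 15027 genes (0.0532%) and no member were called. At an unadjusted p under 0.05 there were 4 large- and 3 small-subunit members, beside 5.7% of all genes. RPL39, a small protein lining the exit tunnel, was at 76.9, 93.0 and 85.3 CPM in DDX18 libraries and at 95.3, 111 and 118 CPM in control libraries when the gene was taken alone. Its groups did not overlap, and its log2 fold change of -0.35 (SE 0.11) had an adjusted p of 0.813 in edgeR. RPL39P3, with the identical coding sequence printed above, had 4296, 4684 and 4395 counts in DDX18 libraries and 3912, 3670 and 4401 in control libraries. Summed, RPL39 and its pseudogenes were at 344, 386 and 362 CPM in DDX18 libraries and at 348, 337 and 389.7 CPM in control libraries. The groups then overlapped, and the log2 fold change was 0.02 (SE 0.08).

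RPL7, whose gene alone was at 83.8, 60.2 and 53.5 CPM in DDX18 libraries and at 47.2, 48.7 and 63.2 CPM in control libraries, had the highest log2 fold change of all members, 0.31. With its pseudogenes it was at 799, 904 and 801 CPM in DDX18 libraries and at 808, 794 and 922 CPM in control libraries, a log2 fold change of -0.01. RPS28 had 85, 97 and 100 counts in DDX18 libraries and 85, 76 and 78 in control libraries, so its level alone rests on few reads. With its pseudogenes RPS28 was at 441.5, 484 and 509.6 CPM in DDX18 libraries and at 479.8, 459 and 475 CPM in control libraries, with overlap. RPL41, the shortest ribosomal protein, averaged 299 ± 9.20 CPM in DDX18 cells and 282 ± 24.9 CPM in control cells for the gene alone (SD, n = 3 each), a log2 fold change of 0.09. With its pseudogenes RPL41 averaged 427 ± 40.2 CPM in DDX18 cells and 383 ± 26.9 CPM in control cells (SD, n = 3 each), a log2 fold change of 0.16 that was not called.

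In the summed fit the groups of 3 members did not overlap on the higher side, beside 5.88% of all genes, and those of 6 members on the lower side, beside 5.67%, against 11.6% of all genes for both sides. RPL13A, RPS16 and RPS23 were higher in every DDX18 library. RPL9, RPL18, RPL21, RPLP0, RPS10 and RPSA were lower in every DDX18 library. RPLP0 with its pseudogenes was at 2394, 2627 and 2387 CPM in DDX18 libraries and at 2712, 2735 and 2843 CPM in control libraries. The log2 fold change of this sum was -0.16 (SE 0.06), with an adjusted p of 0.859 in edgeR. RPS16, RPS23, RPL18 and RPS10 did not overlap in either way of counting, and none was called. RPS16 and RPL18 had no pseudogene counts, so for them the sum only repeats the gene alone. Pseudogenes held 2.74% of the pair for RPS10 and 19.2% for RPS23.

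Levels can be compared between members only per length. Per kilobase of 1 annotated transcript, the 77 members that are not paralogs had a median of 928 CPM, with RPL35 highest at 3712 and RPS28 lowest at 4.08 CPM per kilobase. The SD of these levels across members was 1.74 on the log2 scale, and 1.15 once pseudogene counts were added. The ratio of the highest to the lowest level was 909 for genes alone and 51.5 with pseudogenes. With them, RPS2 was highest at 5109 and RPL36A lowest at 99.2 CPM per kilobase. The transcripts used were 296 to 7686 bases long, and a gene that uses a shorter one than annotated is given too low a level here. The transcripts of RPL37 (7686 bases), RPL27A (4916), RPL37A (3647) and RPS23 (3437) were among the longest. Per kilobase of coding sequence RPL37 was instead highest, at 4829, and RPL9 lowest, at 21.9 CPM per kilobase, a ratio of 220.1 for genes alone and 43.0 with pseudogenes. The SD was then 1.56 for genes alone and 0.94 with pseudogenes.

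After RPL35, the highest members per kilobase of annotated transcript, for genes alone, were RPS14, RPS18, RPL13 and RPS19. RPS14, which lies near the platform of the small subunit, was at 1674, 1648 and 1563 CPM in DDX18 libraries and at 2091, 1756 and 1625 CPM in control libraries, with overlapping groups. RPS18 averaged 1478 ± 84.8 CPM in DDX18 cells and 1539 ± 86.6 CPM in control cells, and RPL13 averaged 1726 ± 49.2 CPM in DDX18 cells and 1746 ± 55.4 CPM in control cells (SD, n = 3 each). RPS19, the protein most often mutated in Diamond-Blackfan anaemia, was at 1249, 1290 and 1173 CPM in DDX18 libraries and at 1369, 1322 and 889 CPM in control libraries. Its only low library was control replicate 3.

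**Figure D5:**
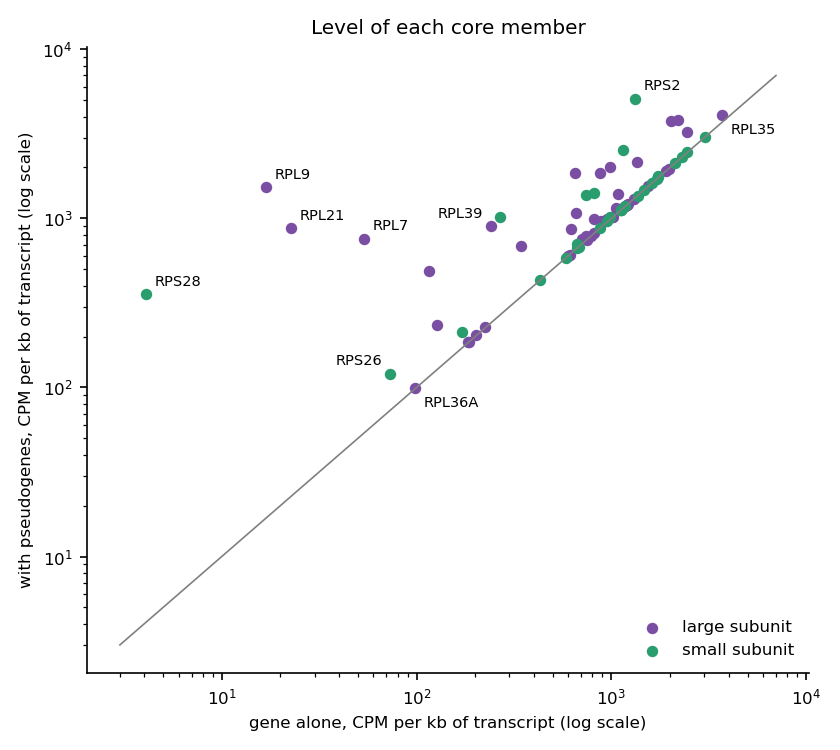
Level of 75 of the 77 members that are not paralogs, in CPM per kilobase of transcript on log axes, for the gene alone (x) and with its pseudogenes (y), averaged over 6 libraries. Points on the diagonal gain nothing from pseudogenes, and RPS28, RPL9, RPL21 and RPL7 move furthest, and the SD across all 77 is 1.15 on the log2 scale with pseudogenes, against 1.74 for genes alone.

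The fold changes were set against properties that the naming rule did not use. The 47 tested members with a TOP-like start had a median log2 fold change of -0.02, against -0.01 for 20 tested members without one. A small nucleolar RNA gene lies inside 28 of the 83 tested members (33.7%, 60 such RNAs) and inside 172 of 12392 other tested protein-coding genes (1.39%). RPL4 holds 5 of them. The median log2 fold change was 0.00 for members that host one and -0.02 for those that do not. The 14 members whose pseudogenes outweighed them had a median of -0.03, the 24 with 1% to 50% of counts on pseudogenes one of 0.01, and the 45 tested members under 1% one of -0.01.

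Genes that act with the ribosomal proteins were read from lists chosen for this purpose, and none of their members was called. FAU, which encodes S30 as a fusion with a ubiquitin-like sequence and lies outside the naming rule, had a log2 fold change of -0.05. Of 17 tested genes in a list of TOP genes outside the naming rule, 9 were positive and 8 negative, with a median of 0.00. EIF4B, an initiation factor, had the smallest p there, at 804 ± 31.7 CPM in DDX18 cells and 663 ± 123 CPM in control cells (SD, n = 3 each), with an edgeR adjusted p of 0.860.

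Among 23 listed genes for ribosomal protein chaperones and for transport and assembly factors, 11 were positive and 12 negative, with a median of -0.01. LTV1, a factor of small subunit assembly, was at 16.1, 18.5 and 14.6 CPM in DDX18 libraries and at 19.4, 18.7 and 20.45 CPM in control libraries, without overlap and without a call. Of 10 genes of TOP mRNA control and growth signalling, 4 were positive and 6 negative, with a median of -0.01. LARP1 averaged 538 ± 33.0 CPM in DDX18 cells and 543 ± 12.1 CPM in control cells, and LARP4 averaged 39.6 ± 8.07 CPM in DDX18 cells and 50.3 ± 5.41 CPM in control cells (SD, n = 3 each). Of 14 genes of p53 and its regulators and targets, 9 were positive and 5 negative, with a median of 0.03. CDKN1A, the cell cycle inhibitor that p53 activates, averaged 27.0 ± 1.14 CPM in DDX18 cells and 25.3 ± 4.14 CPM in control cells (SD, n = 3 each). PLK3 had the smallest p of that list, at 8.43, 7.05 and 8.48 CPM in DDX18 libraries and 5.80, 6.69 and 5.67 CPM in control libraries, with an edgeR adjusted p of 0.845.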

How the data were processed

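One table of raw counts and FPKM per gene was deposited by the authors for 6 libraries of total RNA. The library kit was SMARTER mRNA-seq, per the labels' protocols. No aligner, counter or strandedness is named in the sources used here. GRCm38 and mm10, both mouse builds, appear in the submitters' processing notes, but the rows are human: all 85 members occur in GENCODE 29, 70 with identical coordinates, so positions were read as GRCh38. FPKM, per the file headers, was used only in alternatives, on log2(FPKM + 1) and log2(FPKM + 0.1). The deposited FPKM imply gene lengths a median 6.48 times the transcripts used here, so they were not compared between genes.

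The quasi-likelihood test of edgeR 4.0.16 (R 4.3.3, filterByExpr, TMM) was run on the counts of all genes, with p-values adjusted by Benjamini and Hochberg over 15144 genes and a threshold of 0.05. Intervals are 95% and are those of the log2 fold change, with a width set by the spread among libraries of a group. Total counts of 15911875 to 16207995 per library make counting error small for most members, so 3 libraries per group set the precision. Alternatives used DESeq2 1.42.0 and limma 3.58.1. The test was checked on simulated counts. Levels per length used 1 principal GENCODE transcript per gene. Pseudogenes were matched by name and compared with BLAST 2.17.0. Members, gene lists and alternatives were chosen with earlier results of these data known. Named genes are DDX18, the 6 members with the smallest p in each direction, the 5 highest per length, members whose libraries span more than 2-fold, paralogs, members under the filter, RPL5, RPL11, RPL39, RPL41, RPLP0, RPLP1, RPLP2 and RPSA, and up to 2 genes of each other list. RPS16, RPS27, RPS28, the other pseudogene-rich members, LARP1 and CDKN1A were named after their values were seen. Some genes that enter the counts are not reported here by name.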

Additional observations from a re-analysis of the deposited data

How the results depend on the processing

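No member was called under any of 19 alternatives (other scaling, filters, tools, FPKM, pseudogene sums, no paralogs, 1 library left out). With edgeR, DESeq2 or limma, 3 to 8 members had an unadjusted p under 0.05. The 3 came in edgeR without DDX18 replicate 2, beside 756 of all 15436 genes. The 8 came in edgeR without DDX18 replicate 1, beside 846 of 15484 genes, and without control replicate 3, beside 800 of 15445. The count of all genes called was 4 without an expression filter, 40 with DESeq2 and 3 to 14 with 1 library left out. Deviations of same-numbered libraries correlated at -0.06, 0.03 and -0.10, and over members alone at -0.31, 0.02 and 0.19. Over members, differently numbered libraries correlated at -0.33 to 0.35. These values cannot tell whether same-numbered libraries were made together. A fit with the replicate block called 1 gene in all and no member. The median log2 fold change stayed between -0.02 and 0.02 for the large and between -0.07 and -0.01 for the small subunit, and the subunit ratio differed by 0.05 to 0.12 on the log2 scale. DDX18 lost its call with the block (adjusted p = 0.153) and without DDX18 replicate 2 (0.0544) or control replicate 2 (0.0643). In 24 of 522 values for named members the sign turned, always without a call. With pseudogene counts added, RPL7 was at -0.011, RPL39 at 0.022 and RPL13 at 0.0056, and with no scaling RPS27L was at 0.0072. With 1 library left out, log2 values ranged from -0.10 to 0.46 for RPL35, -0.039 to 0.0017 for RPL13, -0.12 to 0.16 for RPS19, -0.74 to 0.10 for RPL29, -0.39 to 0.31 for RPL37A, -0.0036 to 0.38 for RPLP1, -0.020 to 0.037 for RPLP2, -0.17 to 0.10 for RPS27L, -0.067 to 0.15 for RPL22L1 and -0.33 to 0.016 for RPL36AL. The causes were not tested. The pseudogene, read-through and coding-length comparisons of levels were added after the data were seen.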
